A study of Mus musculus with 26 samples.

Results

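The 48 genes described here encode the ligands, receptors, inhibitors and transducers of WNT signalling. They were taken by gene symbol from a list of pathway genes, out of the 55416 genes of the table. The list was drawn up with earlier results of these libraries known, and it holds 8 genes that had already been picked out on the same libraries (Wnt5b, Ccdc88c, Dvl1, Porcn, Sfrp5, Bambi, Nkd2, Nfatc2). The list held 5 ligands, 2 proteins of ligand maturation and secretion, 13 receptors, 6 secreted inhibitors, and 6 regulators of receptor turnover or enhancers. The rest were 6 cytoplasmic transducers, 6 members of the beta-catenin destruction complex with its target, and 4 nuclear effectors. A gene was tested if its level, in CPM (counts scaled to a common library size), averaged 1 or more in both Ctrl and SCNx mice. This minimum was passed by 45 of the 48 members, and Sfrp2, Notum and Rspo1 were below it.

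The RNA came from the choroid plexus (ChP) of the 4th ventricle, the tissue that makes most of the cerebrospinal fluid, and was sequenced to ask which transcripts follow the circadian clock. Adult male C57BL/6J mice had a sham operation (Ctrl, 12 libraries) or an electrolytic lesion of the suprachiasmatic nuclei, which house the central clock (SCNx, 12 libraries), with the loss of locomotor rhythms as the check of the lesion. Both groups were killed in constant darkness, 1 mouse of each group every 4 h from circadian time CT0 to CT44. Adult male FoxJ1-ERT2-Cre+/-; Bmal1fl/fl mice given tamoxifen (KO, 2 libraries) were killed under a light-dark cycle, 1 at ZT7 and 1 at ZT18, that is, hours after lights on. The Foxj1 promoter drives Cre in cells with motile cilia, so other cells of the KO tissue kept Bmal1. The KO mice were older than the Ctrl and SCNx mice. No Cre-negative or tamoxifen-free control of the KO line was analysed here.

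WNT ligands are secreted glycoproteins that carry a lipid. They bind Frizzled receptors together with LRP5 or LRP6, which stops the destruction complex of Axin, APC and GSK3 from marking beta-catenin for degradation, and beta-catenin then acts with TCF/LEF factors on target genes. Other branches run through ROR and RYK receptors, Dishevelled, small GTPases and calcium with NFAT factors, and WNT5A and WNT5B are mostly known from these. In the hindbrain, WNT5A is known for its part in shaping the ChP of the 4th ventricle during development.

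Depth was 38751162 to 47335226 estimated counts in Ctrl, 41807000 to 49527614 in SCNx, and 17425176 and 18059213 in KO. The summed level of 10 markers of ChP epithelium was 91999 to 109851 CPM in Ctrl, 69245 to 103342 in SCNx, and 48267 to 53399 in KO. The sum of 7 neuronal markers was 315 CPM in Ctrl CT4 and 346 in SCNx CT32, whereas no other library of these groups passed 44.9 and 55.6 CPM, respectively. In Ctrl CT4 6 of these 7 markers were at their highest within the group, and in SCNx CT32 4 of 7, with none at 0. Astrocyte markers also summed to 734 CPM in Ctrl CT4 and 785 in SCNx CT32, against medians of 144 and 141. Oligodendrocyte markers summed to 148 and 281 CPM, against medians of 77.1 and 67.0. Where these 2 libraries are named below for neuronal markers, these sums were raised too. A sum of 7 hepatocyte markers reached 2139 CPM in Ctrl CT16 and 10270 in SCNx CT0, where all 7 were highest, against medians of 0.758 and 2.67. In bulk tissue, fewer cells of a type and less RNA per cell cannot be told apart.

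The clock genes separated the groups. In Ctrl, Arntl (Bmal1) had a fitted log2 amplitude of 2.23 ± 0.08 (SE) with its peak at CT22.9, Nr1d1 one of 2.45 ± 0.20 at CT7.6, Dbp one of 2.04 ± 0.05 at CT10.2 and Per2 one of 1.30 ± 0.15 at CT14.8. In SCNx these amplitudes were 0.48 ± 0.27, 0.29 ± 0.17, 0.66 ± 0.23 and 0.28 ± 0.12. The difference of the rhythm passed the test for all 4, with adjusted p of 0.000384, 0.000229, 0.000686 and 0.000285 (edgeR quasi-likelihood F test, n = 12 per group). The amplitude is the distance from the middle of the fitted 24 h curve to its peak on the log2 scale.

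Levels of different genes were set side by side as CPM per kb of merged exons. The most abundant member in Ctrl was Ctnnb1, which encodes beta-catenin, at 109 ± 7.5 CPM per kb (SD, n = 12). Wls, the carrier of lipid-modified WNT through the secretory pathway, stood at 74.2 ± 5.1, the receptor Fzd4 at 71.9 ± 7.3 and the secreted Frizzled-related protein Sfrp1 at 66.0 ± 4.7, neighbours that overlapped within 1 SD. Next in order were Lrp6 at 36.2 ± 2.7, Fzd7 at 31.0 ± 3.1 and Gsk3a at 27.6 ± 1.7, which again overlapped with their neighbours within 1 SD.

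All 5 ligands were low on this scale. Wnt9a had 2.56 ± 0.32 CPM per kb, Wnt5a 1.96 ± 0.39, Wnt5b 1.68 ± 0.90, Wnt6 0.745 ± 0.251 and Wnt2b 0.498 ± 0.146. Each ligand overlapped with the next in this order within 1 SD. The 4 nuclear effectors lay between 1.62 (Tcf7l2) and 3.54 (Nfatc2) CPM per kb, and the 13 receptors between 0.371 (Ror2) and 71.9. The lowest members were the 3 below the minimum, with 0.206 ± 0.062 for Sfrp2, 0.154 ± 0.113 for Rspo1 and 0.0929 ± 0.1168 for Notum, and Notum had no count in Ctrl CT8.

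**Figure D1:**
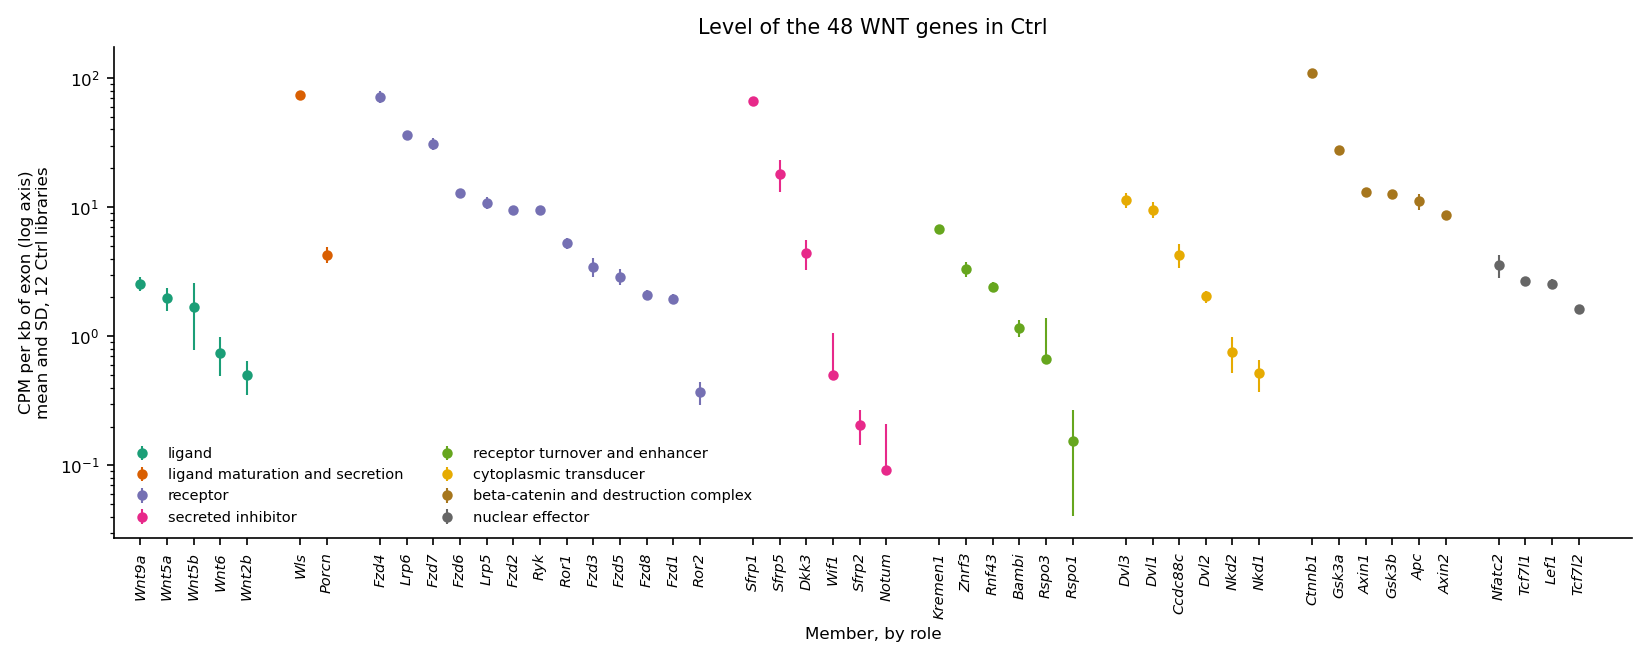
Mean level of the 48 members in the 12 Ctrl libraries, in CPM per kb of merged exons on a log axis, with bars of 1 SD, ordered within each role. Where the SD is larger than the mean (Wif1, Rspo3, Notum) only the upper bar is drawn. Ctnnb1, Wls, Fzd4 and Sfrp1 lie at 66.0 or above, and the 5 ligands at 2.56 or below.

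In Ctrl, a 24 h rhythm passed the test (adjusted p under 0.05) for 10 of the 45 tested members, or 22.2%, against 10.7% of all 13697 tested genes. Of these 10, 7 belong to the 8 genes picked out earlier on the same libraries, so the share is not independent of how the list was made. Of the 37 other tested members, 3 passed (Dvl3, Lef1, Znrf3), or 8.11%. The 10 were the ligand Wnt5b, the inhibitor Sfrp5, and Bambi and Znrf3 of the role of receptor turnover and enhancers. The others were the transducers Dvl1, Dvl3, Ccdc88c and Nkd2, and the nuclear effectors Nfatc2 and Lef1. None of the 13 receptors and none of the 6 members of the destruction complex was among the 10. At an adjusted p under 0.4, 25 members passed, or 55.6%, against 41.7% of all genes. The study also used 0.4, but for the scores of 3 other methods (eJTK, ARSER and BIO_CYCLE). The shares given here are therefore not comparable with its counts. The median amplitude of the 45 members was 0.15 in Ctrl, and that of all tested genes 0.11.

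Of the 10 rhythmic members, 5 had a fitted peak between CT10.1 and CT14.1 (Nkd2, Bambi, Nfatc2, Wnt5b, Sfrp5) and 5 between CT20.8 and CT3.1 (Dvl1, Dvl3, Ccdc88c, Lef1, Znrf3). The first set thus peaked around the start of the subjective night, the second late in the subjective night or early in the subjective day.

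**Figure D2:**
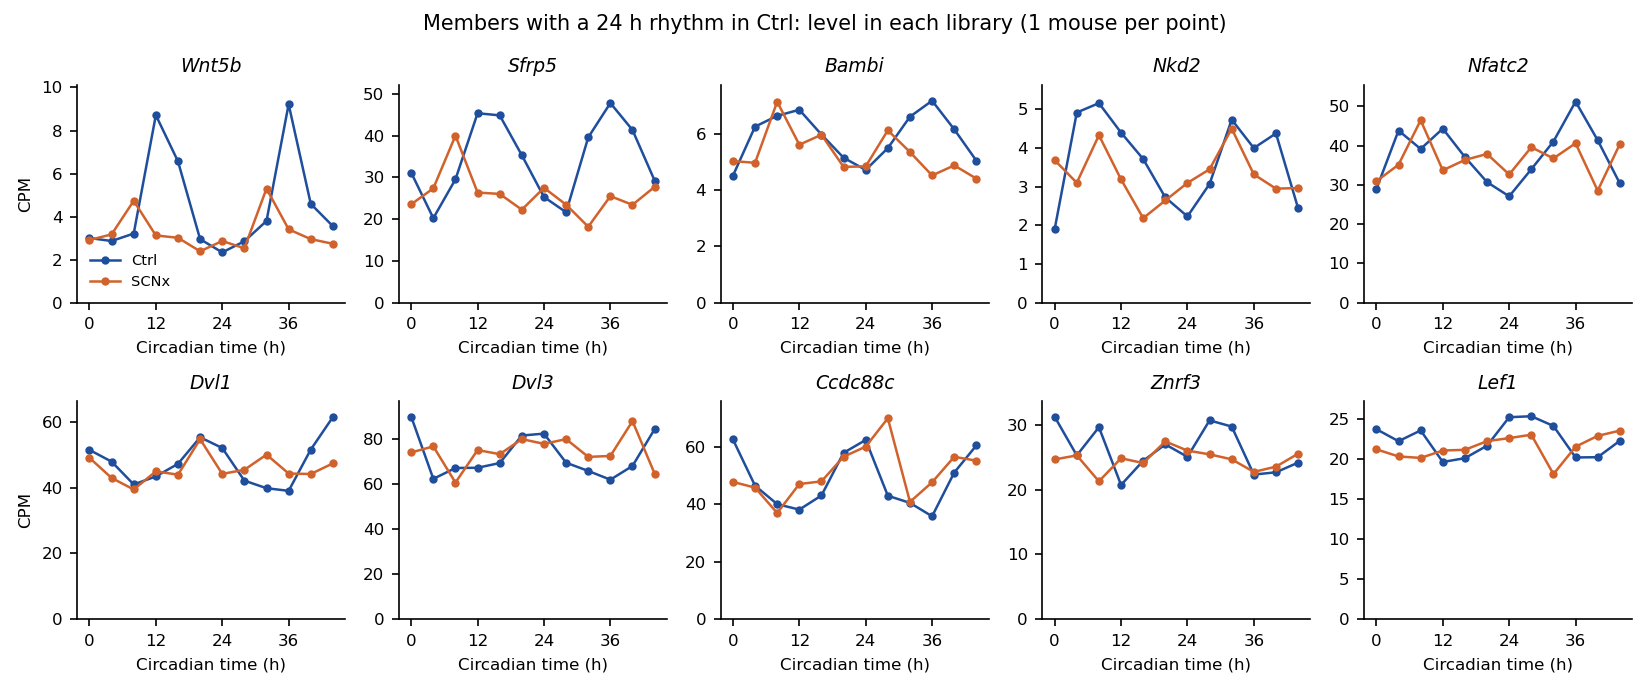
CPM by circadian time in each of the 12 Ctrl (blue) and 12 SCNx (orange) libraries for the 10 members with a 24 h rhythm in Ctrl, 1 mouse per point, with the vertical axis from 0. Wnt5b reached 8.71 CPM at CT12 and 9.22 at CT36 in Ctrl, and no SCNx library passed 5.30.

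Wnt5b, a ligand mostly known from beta-catenin-independent signalling, had the largest amplitude of the 10. Its level in Ctrl was lowest at CT24 (2.33 CPM), had a median of 3.38 and was highest at CT36 (9.22 CPM). The libraries of CT12 (8.71 CPM), CT16 (6.56), CT36 and CT40 (4.59) were the 4 highest, so the high values came at the same hours on both days. The amplitude was 0.82 ± 0.14 with a peak at CT13.1, a 3.11-fold change from trough to peak (adjusted p = 0.000236). Fitted to each day alone, the amplitude was 0.79 on the first day and 0.81 on the second, with peaks at 13.5 h and 12.8 h.

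In SCNx, Wnt5b was lowest at CT20 (2.38 CPM), had a median of 2.98 and was highest at CT32 (5.30 CPM), followed by CT8 (4.73 CPM). Its highest SCNx values were thus 4 h before the Ctrl ones and below them, in 1 mouse each. SCNx CT32 is the library with 346 CPM of neuronal markers, and without it and Ctrl CT4 the SCNx amplitude was 0.27. With all libraries it was 0.37 ± 0.10 with a peak at 8.7 h, and the rhythm did not pass the test (adjusted p = 0.225, unadjusted p = 0.0164). The difference of the rhythm between SCNx and Ctrl had an adjusted p of 0.0478, and Wnt5b was the only 1 of 45 members called (2.22%), against 2.12% of all genes.

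This call lay at the threshold. It was lost in 23 of the 33 alternatives run, over which the adjusted p was 0.00722 to 0.126. Leaving out any 1 of Ctrl CT4, CT12, CT16, CT20, CT24, CT28, CT32, CT36 or CT44, or of SCNx CT0, CT4, CT12, CT16, CT20, CT24, CT36, CT40 or CT44, was enough, although the amplitude difference stayed at 0.36 or more. Without the 2 libraries rich in neuronal transcripts, the adjusted p was 0.0337, and without the 2 rich in hepatocyte transcripts it was 0.126.

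The promoter table of RefSeq (GRCm38.p6, windows of 300 bases, to 50 bases past a start site) held 30 of the 48 members, 7 of the 10 rhythmic ones among them. It was searched on both strands for the E-box CACGTG, bound by the CLOCK and BMAL1 pair, the D-box TTATGTAA, bound by DBP and its relatives, the half-site AGGTCA, bound by REV-ERB and ROR receptors, and CTTTGAA or CTTTGAT, the core bound by TCF/LEF factors. Of the 3 start sites listed for Wnt5b, 1 had a D-box, which 0.938% of all 32851 windows held. Another had a TCF/LEF core, held by 8.65% of all windows. The windows of Lef1 and Dvl2 are shown with them because an E-box was found upstream of 1 rhythmic member, Lef1 (at 1 of its 4 start sites), and because Dvl2 held 3 E-boxes without passing the test for a rhythm. Each sequence is the 250 bases upstream of the start site, with the motif in capitals, and no motifs overlapped:
Wnt5b, chr6:119467212-119467461, minus strand, D-box from 119 bases upstream: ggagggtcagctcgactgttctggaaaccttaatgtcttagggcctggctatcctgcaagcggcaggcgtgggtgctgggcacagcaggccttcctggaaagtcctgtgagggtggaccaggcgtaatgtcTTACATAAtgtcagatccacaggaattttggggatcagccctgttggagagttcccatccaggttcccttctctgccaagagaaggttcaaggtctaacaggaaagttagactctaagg
Wnt5b, chr6:119449387-119449636, minus strand, TCF/LEF core from 71 bases upstream: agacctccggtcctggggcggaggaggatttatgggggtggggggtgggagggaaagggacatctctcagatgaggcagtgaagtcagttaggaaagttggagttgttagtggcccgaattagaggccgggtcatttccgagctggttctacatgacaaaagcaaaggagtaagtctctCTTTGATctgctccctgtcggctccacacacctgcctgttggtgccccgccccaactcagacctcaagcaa
Lef1, chr3:131156044-131156293, plus strand, E-box from 79 bases upstream: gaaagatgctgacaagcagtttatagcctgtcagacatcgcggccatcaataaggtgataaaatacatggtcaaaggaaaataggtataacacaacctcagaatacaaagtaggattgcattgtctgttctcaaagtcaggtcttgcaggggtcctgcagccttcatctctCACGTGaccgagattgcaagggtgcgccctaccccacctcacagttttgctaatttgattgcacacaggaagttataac
Dvl2, chr11:70000342-70000591, plus strand, E-boxes from 123, 76 and 33 bases upstream: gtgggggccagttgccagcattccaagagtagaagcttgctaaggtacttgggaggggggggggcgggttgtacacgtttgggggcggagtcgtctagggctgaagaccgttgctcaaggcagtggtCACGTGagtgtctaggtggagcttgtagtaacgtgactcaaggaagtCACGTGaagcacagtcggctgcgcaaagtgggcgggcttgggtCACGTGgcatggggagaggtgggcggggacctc
An E-box was found for 4 of the 30 members (Dvl2, Lef1, Wif1, Wnt9a), in 10.3% of their 39 windows and 7.15% of all windows. A TCF/LEF core was found for Wnt5b and Gsk3a, in 5.13% of member windows. The half-site AGGTCA was in none of the 39 and in 16.3% of all windows. A match says only that the letters stand in the window.

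The other ligands did not pass the test for a rhythm in Ctrl. Wnt5a had 12.2 CPM at its lowest (CT0), a median of 14.3 and 20.7 at its highest (CT36), with 20.5 at CT12. Its amplitude was 0.29 ± 0.08 with a peak at 11.6 h (adjusted p = 0.0537), and the call was made in 10 of 35 alternatives, DESeq2 among them. Wnt2b had an amplitude of 0.50 ± 0.08 at 15.2 h (adjusted p = 0.0800), at 1.37 to 2.99 CPM. Wnt6 and Wnt9a had amplitudes of 0.28 ± 0.23 and 0.15 ± 0.06.

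Of the proteins that mature and export ligands, Porcn, the acyltransferase that adds the lipid to WNT, came closest to the threshold. Its level in Ctrl ran from 10.1 CPM (CT28) through a median of 12.9 to 16.5 (CT12). The amplitude was 0.20 ± 0.06 at 11.2 h (adjusted p = 0.0533) and passed in 11 of 35 alternatives. In SCNx it was 0.09 ± 0.05, from 10.7 to 14.7 CPM. Wls, which then carries the ligand to the surface, had an amplitude of 0.08 ± 0.04 in Ctrl.

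Among the secreted inhibitors, Sfrp5, which binds WNT ligands outside the cell, was rhythmic in Ctrl. Its level was lowest at CT4 (20.2 CPM), had a median of 33.2 and was highest at CT36 (47.8 CPM), with 45.4 at CT12. The 2 days were alike, with the lowest value of the second day at CT28 (21.6 CPM). The amplitude was 0.50 ± 0.08 with a peak at CT14.1, or 2.01-fold from trough to peak (adjusted p = 0.00626).

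In SCNx, Sfrp5 ran from 18.2 CPM (CT32) through a median of 25.8 to 40.0 (CT8). Apart from CT8, no SCNx library passed 27.7 CPM, a level that all Ctrl libraries but CT4, CT24 and CT28 exceeded. The SCNx amplitude was 0.08 ± 0.12, and the test of the difference gave an adjusted p of 0.126. SCNx CT32, the lowest library, is the one with 346 CPM of neuronal markers and the lowest epithelial sum, and without it and Ctrl CT4 the SCNx amplitude was 0.18 (adjusted p of the difference 0.0628). That difference passed in 3 of 34 alternatives, with DESeq2 and without SCNx CT8 or SCNx CT32.

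The other inhibitors tested were not called. Sfrp1, a relative of Sfrp5, had an amplitude of 0.09 ± 0.04 in Ctrl (adjusted p = 0.467). For Wif1 and Dkk3, the SCNx spread was set by 1 library. Wif1, which traps WNT ligands, was at 0.0465 CPM (Ctrl CT8) to 3.62 (Ctrl CT36), and at 0.0232 (SCNx CT28) to 44.9 (SCNx CT32) with a median of 2.15. Dkk3, a Dickkopf relative, was at 11.3 to 24.4 CPM in Ctrl and at 8.29 to 69.1 in SCNx, again highest in SCNx CT32. That library is the one in which the 7 neuronal markers summed to 346 CPM and the astrocyte markers to 785. The part of these cells in the values was not tested.

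The role of receptor turnover and enhancers held 2 rhythmic members. Bambi, a pseudoreceptor of the TGF-beta family that also acts on WNT signalling, had 4.50 CPM at CT0, a median of 6.06 and 7.16 CPM at CT36. Its amplitude was 0.29 ± 0.03 with a peak at CT10.7 (adjusted p = 0.0135), and the peaks of the days alone were at 10.2 h and 11.2 h. In SCNx the amplitude was 0.16 ± 0.08, from 4.4 to 7.13 CPM. The Ctrl call was lost with the fibroblast marker level in the model and without a filter on low counts (adjusted p up to 0.0818).

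Znrf3, a ubiquitin ligase that removes Frizzled receptors from the surface, had a fitted peak earlier in the day than Bambi. It was lowest at CT12 (20.7 CPM) and highest at CT0 (31.3 CPM), with 22.4 at CT36 and 30.7 at CT28. The high at CT0 did not recur at CT24 (25.1 CPM). The amplitude was 0.19 ± 0.06 with a peak at CT3.1 (adjusted p = 0.0425), and 0.09 ± 0.03 in SCNx. The call was lost in 19 of 35 alternatives, of which 15 left out 1 library each (Ctrl CT0, CT8, CT12, CT20, CT28, CT32, CT36, CT40 or CT44, SCNx CT4, CT12, CT16, CT24, CT28 or CT44). Over all alternatives its adjusted p was 0.00928 to 0.119.

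The remaining genes of this role were not called. Rspo3, an R-spondin that stabilizes receptors, had the largest fitted amplitude of this role, 0.49 ± 0.44 (adjusted p = 0.536). Its value was 8.97 CPM in Ctrl CT4 and no more than 2.80 CPM in any other Ctrl library. Ctrl CT4 is the library with 315 CPM of neuronal and 734 CPM of astrocyte markers, whose part in this value was not tested. Kremen1, a receptor of Dickkopf proteins, had an amplitude of 0.12 ± 0.02 (adjusted p = 0.0834), and Rnf43, a ligase of the same kind as Znrf3, one of 0.09 ± 0.04.

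The cytoplasmic transducers were the role with most calls, 4 of 6, of which Dvl3 alone had not been picked out earlier. Dvl1, 1 of the 3 Dishevelled scaffolds that pass the signal on from Frizzled, had 39.1 CPM at CT36, a median of 47.7 and 61.6 CPM at CT44. Its 3 highest libraries were CT44, CT20 (55.4 CPM) and CT24 (52.2 CPM). The amplitude was 0.26 ± 0.03 with a peak at CT20.8 (adjusted p = 0.000914). In SCNx it was 0.08 ± 0.05, and the test of the difference gave an adjusted p of 0.214.

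Dvl3 ran with Dvl1, from 62 CPM at CT36 through a median of 68.7 to 90 CPM at CT0. Its amplitude was 0.21 ± 0.04 with a peak at CT22 (adjusted p = 0.0206), and 0.05 ± 0.06 in SCNx. Without Ctrl CT0, CT36 or CT44, without a filter, or with the fibroblast marker level in the model, the call was lost (adjusted p up to 0.123). Dvl2, the third Dishevelled gene, had an amplitude of 0.13 ± 0.06 at 17.4 h and did not pass (adjusted p = 0.292).

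Ccdc88c encodes Daple, which binds Dishevelled. It had 35.9 CPM at CT36, a median of 44.9 and 62.7 CPM at CT0, with 62.5 at CT24 and 60.6 at CT44. The amplitude was 0.38 ± 0.04 with a peak at CT22.1 (adjusted p = 0.00311). In SCNx the level ran from 37.0 CPM (CT8) to 70.1 (CT28), with an amplitude of 0.20 ± 0.09 and a peak at 22 h, close to that of Ctrl. The SCNx rhythm did not pass (adjusted p = 0.284, unadjusted p = 0.0309).

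Nkd2, a Naked cuticle protein that binds Dishevelled and restrains the signal, had the second largest amplitude of the rhythmic members. It was at 1.90 CPM at CT0, a median of 3.86 and 5.16 CPM at CT8, and at 2.23 at CT24 and 4.74 at CT32. The amplitude was 0.56 ± 0.11 with a peak at CT10.1, or 2.18-fold from trough to peak (adjusted p = 0.00440). In SCNx it was 0.30 ± 0.08 at 6.4 h (adjusted p = 0.271, unadjusted p = 0.0275). Its relative Nkd1 had an amplitude of 0.31 ± 0.12 at 4.5 h in Ctrl (adjusted p = 0.200), and was highest in Ctrl CT4 at 4.16 CPM.

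Nfatc2 and Lef1 were the rhythmic nuclear effectors. Nfatc2, a transcription factor of the calcium branch, had 27.1 CPM at CT24, a median of 38.1 and 51.2 CPM at CT36, with 44.3 at CT12 and 28.9 at CT0. Its amplitude was 0.34 ± 0.06 with a peak at CT10.7 (adjusted p = 0.00786), and 0.10 ± 0.08 in SCNx. Lef1, a partner of beta-catenin on DNA, had 19.6 CPM at CT12, a median of 22.3 and 25.4 CPM at CT28. Its amplitude of 0.16 ± 0.03 at CT2.7 was the smallest of the 10 (adjusted p = 0.0134).

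The SCNx curve of Lef1 had an amplitude of 0.10 ± 0.03 with a peak at 20.2 h, and the difference of the rhythm did not pass (adjusted p = 0.0798). It passed in 4 of 34 alternatives, with DESeq2, without the 2 libraries rich in neuronal transcripts, and without Ctrl CT4 or SCNx CT28. Without a filter on low counts the Ctrl call of Lef1 was lost (adjusted p = 0.105). Tcf7l1 and Tcf7l2, the other TCF factors of the list, had amplitudes of 0.07 ± 0.04 and 0.06 ± 0.02 in Ctrl.

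The 13 receptors had the lowest median amplitude of the roles in Ctrl, 0.081. The largest was that of Fzd3, 0.29 ± 0.06 at 21.9 h, at 32.4 CPM (CT36) to 53.5 (CT16) with a median of 45.3 (adjusted p = 0.320). Fzd3 reached 99.0 CPM in SCNx CT32, and no other SCNx library passed 54.7. Without Ctrl CT4 and SCNx CT32 its Ctrl rhythm passed, with an amplitude of 0.30 and an adjusted p of 0.0165. Lrp5, the WNT co-receptor, also passed without them (adjusted p = 0.00329 against 0.137 with all libraries), whereas Lrp6 had an amplitude of 0.06 ± 0.04.

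In the destruction complex, the largest amplitude was that of Apc, 0.15 ± 0.08 (adjusted p = 0.449), at 137 CPM (CT36) to 210 CPM (CT4) in Ctrl. Ctnnb1 had an amplitude of 0.09 ± 0.03 at 6.0 h (adjusted p = 0.161), at 527 to 645 CPM. Axin2, a scaffold of the complex that is itself a target of beta-catenin, had one of 0.11 ± 0.03 at 15.9 h (adjusted p = 0.150), at 42.0 to 51.6 CPM. Axin1, Gsk3a and Gsk3b had amplitudes of 0.07 ± 0.03, 0.04 ± 0.04 and 0.09 ± 0.02. None of these passed.

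The count of calls in Ctrl was 16 in place of 10 when SCNx CT32 was left out, in a fit in which both groups share 1 estimate of the spread. The share over all genes was then 16.6% in place of 10.7%. The count was 8 to 12 without any other single library. Wnt5b, Sfrp5, Dvl1, Ccdc88c, Nkd2 and Nfatc2 passed in every alternative in which they were tested.

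In SCNx, no member passed the test for a 24 h rhythm at an adjusted p under 0.05, and neither did any other gene (0%; edgeR). The count for the members was 0 with DESeq2 and limma-trend too (7 and 6 at an unadjusted p under 0.05), although DESeq2 called 432 genes in all, or 3.15%. At an unadjusted p under 0.05 in edgeR, 6 of 45 members passed, or 13.3% (Fzd1, Wnt5b, Nkd2, Ryk, Ccdc88c, Lef1), against 14.8% of all genes. Without SCNx CT32 these 6 members became 3, and with a separate fit per group 2, and the shares over all genes were not computed. Fzd1 had 20.8 CPM in SCNx CT32 and no more than 9.11 in any other SCNx library. At an adjusted p under 0.4 in the main fit, 8 of 45 members passed, or 17.8%, against 22.4% of all genes.

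All 10 members rhythmic in Ctrl had a smaller amplitude in SCNx. As they were chosen for their Ctrl rhythm, this is a description and not a test. Over the 45 members, the median amplitude in SCNx was 0.086, and that of all genes 0.091. For 33 of 45 members the SCNx amplitude was the smaller one, against 55.3% of all genes. The 45 hold the 8 genes picked out earlier on the same libraries, so this count is not independent of how the list was made. The largest SCNx amplitudes were those of Wif1 (1.39 ± 1.17) and Dkk3 (0.60 ± 0.33), whose highest values were both in SCNx CT32.

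**Figure D3:**
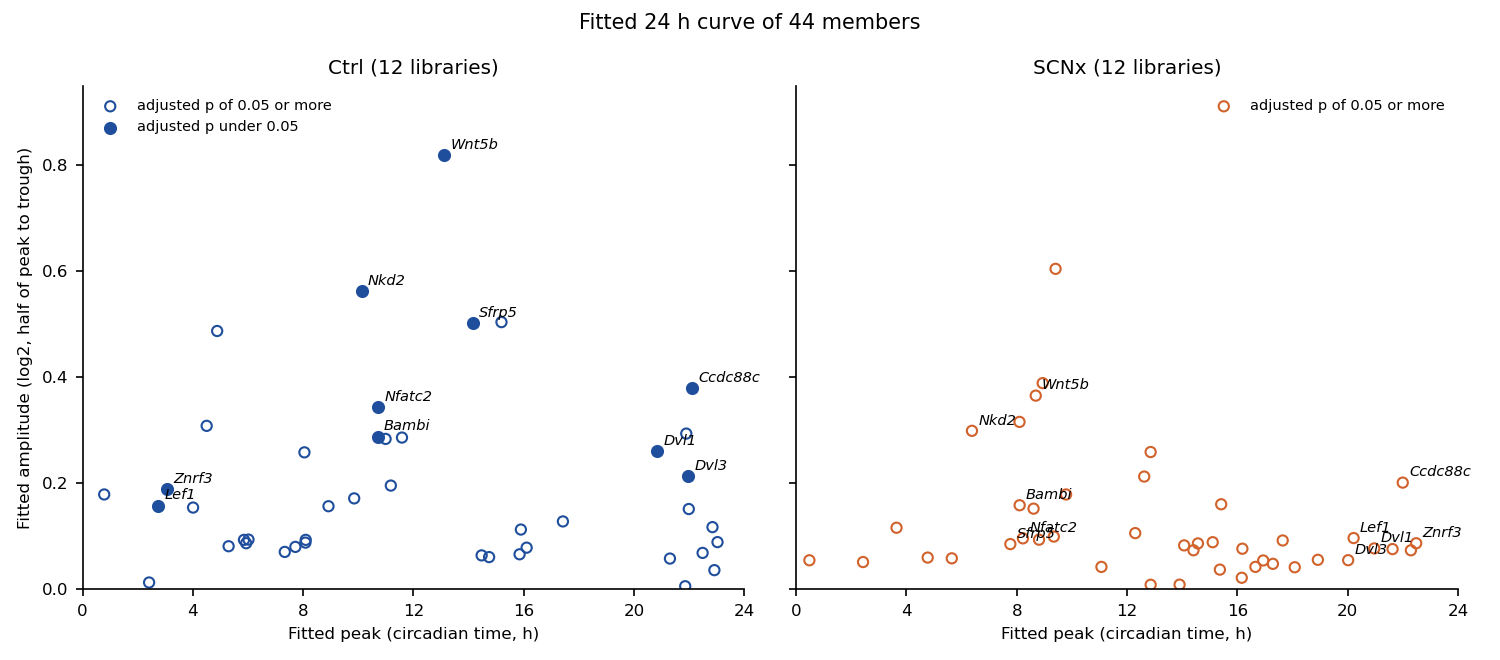
Fitted amplitude (log2) against fitted peak time in Ctrl (left) and SCNx (right) for 44 of the 45 tested members, 1 circle each, with filled circles for an adjusted p under 0.05 and names for the 10 members called in Ctrl. Wif1 is left out for its scale, with amplitudes of 0.75 in Ctrl and 1.39 in SCNx. Wnt5b stands at 0.82 in Ctrl and at 0.37 in SCNx, where no circle is filled.

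With all times pooled, no member differed in level between SCNx and Ctrl at an adjusted p under 0.05, nor did any gene (0%; edgeR). The count for the members was 0 with DESeq2 and limma-trend too (5 of 43 and 4 of 45 at an unadjusted p under 0.05), with 7 genes called in all by DESeq2. At an unadjusted p under 0.05 in edgeR, 4 of 45 members had a lower value in SCNx, or 8.89%, against 4.58% of all genes, and 1 a higher value, or 2.22%, against 4.78%. The log2 fold change was below 0 for 32 of the 45 members, with a median of -0.05, and for 43.5% of all genes, with a median of 0.01. SCNx CT32, with the lowest epithelial sum (69245 CPM), was the lowest SCNx library for 14 of the 48 members and the highest for 13. SCNx CT0, with 10270 CPM of hepatocyte markers, was the lowest for 7 and the highest for 2. The part of other cells in these fold changes was not tested.

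The 5 members with the smallest p were Ryk, Sfrp5, Fzd2, Wif1 and Wnt5b. Ryk, a receptor of WNT ligands with a kinase-like domain, had a median of 42.1 CPM in Ctrl (40.7 to 46) and 40.2 in SCNx (36.5 to 43.6), so the groups overlapped. Its log2 fold change was -0.09 ± 0.03 (SE, p = 0.00738, adjusted p = 0.423, edgeR). For Sfrp5, with 20.2 to 47.8 CPM in Ctrl and 18.2 to 40.0 in SCNx, it was -0.40 ± 0.14 (p = 0.00745, adjusted p = 0.423).

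Fzd2, a Frizzled receptor, had a median of 34.7 CPM in Ctrl (30.5 to 39.1) and 32.1 in SCNx (24.7 in CT32 to 39.8). Its log2 fold change was -0.14 ± 0.06 (p = 0.0185, adjusted p = 0.466, edgeR), and -0.18 to -0.12 with 1 library left out. For Wnt5b it was -0.46 ± 0.22 (p = 0.0474, adjusted p = 0.522). The medians of Wnt5b were 3.38 and 2.98 CPM, closer than the means of 4.47 and 3.26, which the Ctrl libraries of CT12 and CT36 raised. The log2 fold change of Wif1 was 2.16 ± 0.90 (p = 0.0248, adjusted p = 0.489) with all libraries and 0.58 without SCNx CT32.

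**Figure D4:**
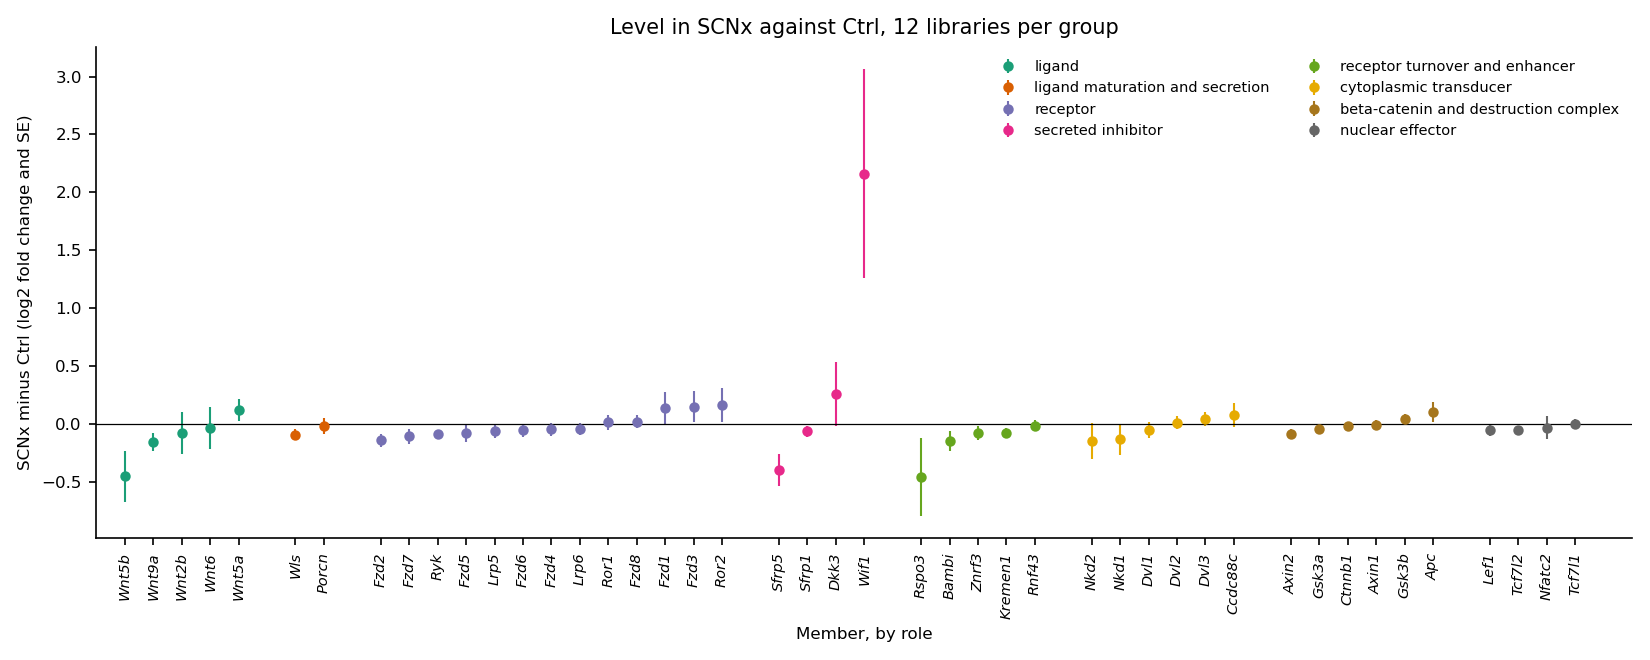
Log2 fold change of SCNx minus Ctrl with its SE for the 45 tested members, 12 libraries per group, ordered within each role. Most points lie near 0, Wnt5b and Sfrp5 at -0.46 and -0.40, and Wif1 at 2.16 with an SE of 0.90. No member had an adjusted p under 0.05.

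Levels were also compared between the days in darkness. In Ctrl, 0 of 45 passed for the second against the first 24 h at an adjusted p under 0.05 (0% of all genes, edgeR), and 0 at an unadjusted p under 0.05 (4.28% of all genes). In SCNx, 0 passed (0% of all genes) and 3 had an unadjusted p under 0.05, or 6.67%, against 18.6% of all genes. These were Ror2 (log2 difference 0.49, p = 0.00836), Ccdc88c (0.23, p = 0.0182) and Ryk (-0.07, p = 0.0463). DESeq2 and limma-trend also called 0 members in each group (0 in Ctrl and 2 in SCNx at an unadjusted p under 0.05, each). Over all genes, DESeq2 called 1 in Ctrl and 335 in SCNx, or 2.45%.

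WNT ligands and inhibitors are also made by stromal cells, so each member was compared with the summed level of 6 fibroblast markers (Col1a1, Col1a2, Col3a1, Dcn, Lum, Dpt). This sum was 339 to 482 CPM in Ctrl and 363 to 466 in SCNx. No correlation passed over the 90 relations (lowest adjusted p = 0.205 for Pearson's r and 0.183 for Spearman's rho, permutation tests, n = 12 per group). At an unadjusted p under 0.05 there were 7 in Ctrl and 5 in SCNx.

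Among these in Ctrl were 3 of the rhythmic members. For Dvl3, r was -0.73 and rho -0.66 (p = 0.00765 and 0.0219, permutation tests), and for Ccdc88c -0.64 and -0.64 (p = 0.0287 and 0.0295, permutation tests). For Nfatc2, r was 0.62 and rho 0.61 (p = 0.0326 and 0.0396, permutation tests). Without the 2 libraries farthest from the median of the marker sum, r was -0.73, -0.77 and 0.76. Wnt6, a ligand of low level, had r = 0.70 and rho = 0.82 in Ctrl. With the marker sum in the model, the amplitude of Dvl3 was 0.18 in place of 0.21 and that of Bambi 0.24 in place of 0.29. Both calls were lost (adjusted p = 0.123 and 0.0561, edgeR). Each library is 1 mouse at its own circadian time, and the permutations took no account of time. Marker level and time of day can thus not be fully told apart in these correlations or in this fit.

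A further list of 106 genes of the pathway, also drawn up with earlier results of these libraries known, had 76 genes above the minimum. In Ctrl, 10 of these 76 were rhythmic, against the 10.7% of all genes given above, and in SCNx 0. They were 3 of 4 receptors tested (Ptk7, Reck, Adgra2), 3 of 9 target genes (Ccn4, Id2, Tnfrsf19), 2 of 17 cytoplasmic genes (Dact1, Csnk1d), Bcl9 of 12 nuclear genes and Invs of 15 genes of planar cell polarity. No ligand, secreted modulator or gene of the calcium branch passed. No gene of this list differed in level, and the rhythm of 1 differed between SCNx and Ctrl.

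That gene was Dact1, whose product binds Dishevelled. Its amplitude was 0.41 ± 0.05 at 0.1 h in Ctrl (adjusted p = 4.7e-05) and 0.14 in SCNx, with an adjusted p of 0.00731 for the difference. Ptk7, a pseudokinase receptor of planar cell polarity, followed with 0.21 ± 0.03 at 7.1 h (adjusted p = 0.00791), and Invs (inversin) with 0.17 ± 0.02 at 16.2 h (adjusted p = 0.00821). Ccn4, known as WISP1 and a target of beta-catenin, had 0.58 ± 0.14 at 9.2 h (adjusted p = 0.0182) at a mean of 1.87 CPM. The casein kinase gene Csnk1d had 0.09 ± 0.02 at 17.5 h (adjusted p = 0.0214).

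The smallest p for level in that list belonged to Trabd2b, a protease of WNT ligands, with a log2 fold change of -0.36 ± 0.12 in SCNx (p = 0.00754, adjusted p = 0.423, edgeR). Next came Vangl1 of planar cell polarity at -0.09 ± 0.03, the target Tnfrsf19 at -0.15 ± 0.06, the calcium branch factor Nfatc3 at 0.09 ± 0.04 and the inhibitor Sfrp4 at 0.39 ± 0.18. Their adjusted p were 0.450 to 0.504.

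The KO libraries differed from the others in kit, dissection (laser capture), light regime and site. The KO mice were also older and on a tamoxifen diet, and their frozen tissue gave RNA of lower integrity. The other mice had been operated on, and no operation is described for KO. None of this can be told apart from genotype, and each time was 1 mouse, so no test was made. Arntl, the targeted gene, was at 12.8 CPM at ZT7 and 10.6 at ZT18, against 2.92 at CT8 and 27.4 at CT20 in Ctrl. The deletion removes an exon, so the count over the whole gene does not check it. Neuronal markers summed to 218 and 317 CPM in KO, 7 of 7 above 0, and astrocyte markers to 748 and 851 CPM, above the medians of 144 in Ctrl and 141 in SCNx. Oligodendrocyte markers summed to 307 and 446 CPM in KO, against medians of 77.1 in Ctrl and 67.0 in SCNx. Markers of ependyma summed to 35.2 and 28.1 CPM, against medians of 10.6 and 10.7.

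Between ZT18 and ZT7 in KO, 7 of 44 members differed by 1.5-fold or more, or 15.9%, against 11.6% of all 13220 genes above the minimum in all groups. All 7 were higher at ZT18. The sum of the 6 fibroblast markers was also higher there, 413 CPM against 255 at ZT7. So were the sums of neurons (317 against 218), oligodendrocytes (446 against 307), endothelium (366 against 295) and mural cells (327 against 262). Those of astrocytes, macrophages, epithelium and hepatocytes were higher too, and those of ependyma and red cells lower. The part of these cells in the values was not tested. Wnt6 had 10 counts at ZT7 and 39 at ZT18 (log2 difference 1.71), Wnt2b 25 and 84 (1.56), and Wnt5a 187 and 418 (1.01). Nkd1 had 57 and 139 (1.12), Rspo3 32 and 67 (0.90), Fzd2 190 and 337 (0.68), and Lef1 418 and 740 (0.67). Without TMM scaling, 12 members passed in place of 7, and the share over all genes was not computed.

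At CT20 against CT8 in Ctrl, 3 members passed this fold, or 6.82%, against 10% of all genes (Rspo3, Nkd2, Wnt2b), and at CT44 against CT32 again 3, against 10.5% (Nkd2, Dvl1, Fzd5). In SCNx they were 5, or 11.4%, against 8.32%, and 9, or 20.5%, against 17.6%. The day library of the 9 was SCNx CT32, with 346 CPM of neuronal markers. Of the 9, Fzd3, Ror2, Nkd2, Wnt2b, Wnt5b, Dkk3 and Fzd1 were highest within SCNx in that library. Sfrp5 was lowest there, and Wnt5a was neither. The part of neuronal and glial cells in these differences was not tested. Wnt5a, higher at ZT18 in KO, had log2 differences of -0.16 and -0.19 in Ctrl and -0.29 and -0.59 in SCNx. Nkd2 had log2 differences of -0.92 and -0.96 in Ctrl and 0.57 in KO, from 59 and 98 counts. For Wnt5b it was 0.56 in KO, from 40 and 66 counts, -0.13 and -0.10 in Ctrl, and -0.98 and -0.97 in SCNx. The sign for Wnt5b in Ctrl depended on the night library, as ZT18 lies between CT16 and CT20. Ctrl CT16 had 6.56 CPM against 3.21 at CT8, and CT40 had 4.59 against 3.79 at CT32. In SCNx, Wnt5b stayed lower at CT16 and CT40 than at CT8 and CT32, as did Nkd2 in Ctrl. Wnt5a in Ctrl was higher at CT16 than at CT8 and lower at CT40 than at CT32.

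**Figure D5:**
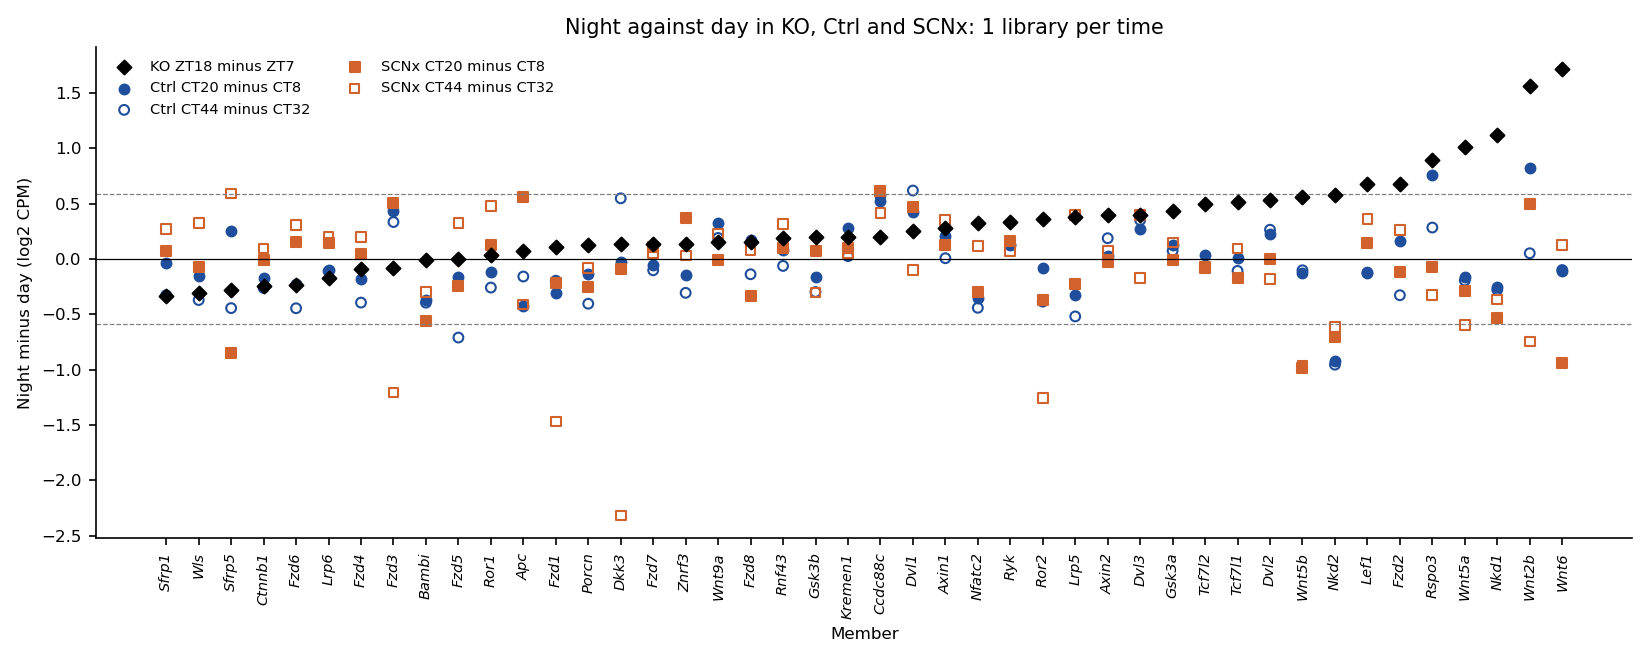
Night minus day in log2 CPM for 44 members, ordered by the KO value, for ZT18 minus ZT7 in KO (black), CT20 minus CT8 and CT44 minus CT32 in Ctrl (blue) and SCNx (orange), 1 library per time. Dashed lines mark 1.5-fold. The KO values of Wnt6 and Wnt2b are the highest, at 1.71 and 1.56, and Dkk3 of SCNx the lowest at -2.32, where CT32 is the day library.

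Against the Ctrl mean, 5 members were over 2-fold higher in KO, or 11.4%, against 12.7% of all genes, and 2 over 2-fold lower, or 4.55%, against 5.76%. The higher ones were Nkd1 (log2 difference 1.38), Tcf7l2 (1.18), Fzd3 (1.12), Ccdc88c (1.02) and Rspo3 (1.01), and the lower ones Fzd2 (-1.04) and Wnt9a (-1.03). Without TMM scaling the split was 1 higher and 5 lower, and the shares over all genes were not computed. Nkd1 was also highest within its group in both Ctrl CT4 and SCNx CT32, Fzd3 in SCNx CT32 and Rspo3 in Ctrl CT4. These libraries shared with KO the high sums of neuronal, astrocyte and oligodendrocyte markers. The epithelial sum was 48267 to 53399 CPM in KO, against 91999 to 109851 in Ctrl. The part of these cells in the KO levels was not tested.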

How the data were processed

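The authors mapped single-end reads to GRCm39 with the nf-core/rnaseq workflow and deposited Salmon 1.9.0 estimated counts per gene, not normalized, in 1 table for Ctrl and SCNx and 1 for KO. Library kits were KAPA mRNA HyperPrep for Ctrl and SCNx and a SMARTer low-input total RNA kit for KO. Estimated counts were rounded. The 13697 genes whose CPM averaged 1 or more in both Ctrl and SCNx were tested. TMM factors were 0.955 to 1.08 in Ctrl and SCNx, and 0.828 (ZT7) and 0.885 (ZT18) in KO. One edgeR 4.0.16 model (R 4.3.3) with a mean, cosine and sine of 24 h per group was fitted to 24 libraries, another with a mean per group, and 1 more with a term for the second day. Tests were quasi-likelihood F tests with Benjamini-Hochberg adjustment over all tested genes. Amplitude errors come from the spread of log2 CPM (prior count 1) around the curve. Marker sums are CPM without TMM factors. Correlations used 100000 permutations (Python 3.11.15, numpy 2.4.6). Exon lengths and promoters come from GENCODE and RefSeq tables of GRCm38, another build than the authors'. The positions of the promoter windows are on GRCm38, and no coordinates of genes are given. Mice within a group differ in circadian time, and in the fits of the rhythm and of the second day the spread around the fitted curve serves as error. In the test of level, with a mean per group, variation over circadian time counts as error too. With the 24 h cosine and sine in that model, 8 of 45 members had an unadjusted p under 0.05 in place of 5 (edgeR). No member was called, and the unadjusted share over all genes was not computed.

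The members and the lists were chosen with earlier results of these data known. Named in full were the members called in any test, those the study names, the 5 with the smallest p for SCNx against Ctrl and the largest Ctrl amplitude in each role. Of the other pathway genes, the 5 with the smallest p for a Ctrl rhythm and for level were named. Alternatives were DESeq2 1.42.0, limma-trend 3.58.1, DESeq2 size factors, other filters or none, and leaving out libraries. Others were fibroblast markers or a linear trend as covariates, separate fits, circadian time as a block and the thresholds of the study. Its threshold for rhythms had been set for other methods. The scripts were tested on simulated data.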

Additional observations from a re-analysis of the deposited data

Results flagged for a closer look

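The difference of the Wnt5b rhythm between SCNx and Ctrl was singled out because the test of the difference itself passed, with an adjusted p of 0.0478 (edgeR quasi-likelihood F test, n = 12 per group). The fitted amplitude was 0.82 in Ctrl and 0.37 in SCNx, and the fitted peak lay at CT13.1 in Ctrl and at 8.7 h in SCNx. Over 33 alternatives the adjusted p was 0.00722 to 0.126, and the call was lost in 23 of them, although the amplitude was larger in Ctrl in all 33.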

How the results depend on the processing

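Numbers of members called are given here. The 10 with a rhythm in Ctrl became 6 without a filter on low counts and 25 at an adjusted p under 0.4. They became 8 to 16 when 1 library at a time was left out. Over all genes, 839 of 40287 were called without a filter, against 1459 of 13697 in the main fit. With 1 library left out, 918 to 2249 genes were called. The 0 in SCNx became 8 at an adjusted p under 0.4 and stayed 0 otherwise. The 1 member whose rhythm differed became 3 with DESeq2 and without Ctrl CT4 and SCNx CT32. Over all genes, these fits called 589 of 13697 and 504 of 13490, against 291 of 13697 in the main fit. The member count became 0 with limma-trend, without a filter, and with a mean CPM of at least 0.5 or 5. At 5, Wnt5b was not tested. The count was also 0 without Ctrl CT16 and SCNx CT0 and with a linear trend, and 0 to 2 when 1 library was left out. Over all genes, these further fits called 163 to 466. The causes were not tested. Counts for level, for the second day and for the fibroblast marker correlations were 0 in every alternative run. In KO, 7 members past 1.5-fold became 12 without TMM and 4 past 2-fold. The 2 lower and 5 higher in KO became 5 and 1 without TMM. With CT16 and CT40 in place of CT20 and CT44, the Ctrl counts of 3 and 3 became 5 and 1. Past 2-fold the counts were 0 and 0 in Ctrl, and 0 and 4 in SCNx, the 4 with SCNx CT32 as the day library. For these alternatives of KO and of night against day, shares over all genes were not computed. Wnt5a in SCNx was at 12.81 CPM at CT44 and 19.45 at CT40, against 19.12 at CT32, so its night difference changed sign. No value called in a test changed its sign. Log2 fold changes of level that were not called did: without Ctrl CT4 and SCNx CT32, Rspo3 had 0.06 in place of -0.46, Dkk3 -0.10 in place of 0.26, Fzd1 -0.04 in place of 0.13 and Wnt6 0.02 in place of -0.04, and without Ctrl CT16 and SCNx CT0, Wnt2b had 0.05 in place of -0.08 and Wnt6 0.05. Dvl2, Axin1 and Gsk3b, all close to 0, also crossed it without Ctrl CT4 and SCNx CT32. No paired analysis was possible because the replicate numbers only name the samples, and with circadian time as a block the level count stayed 0. The lowest members (Wnt6, Wnt2b, Ror2, Rspo3, Wif1) rest on few counts per library.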
